A study of Mus musculus with 9 samples.

Results

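The genes described here are the exchange factors Rasgrf1, Rasgrf2, Rasgrp1, Rasgrp2 and Rasgrp3 and the Ras-like GTPases Rasl11a, Rasl11b, Rasd1, Rasd2 and Rem2, in mouse cortical neurons stimulated in culture. Members were all probes of a 1-colour Agilent mouse array whose RefSeq identifier maps to 1 of these 10 symbols. That rule gave 12 probes among 41174 on the array, 2 each for Rasgrf1 and Rasgrp1 and 1 for each other gene, and every probe was read separately. Cortical neurons of C57bl/6 embryos at embryonic day 15 were grown for 12 days. The groups are KCl, with 50 mM potassium chloride for 6 h, Bic, with 25 µM bicuculline for 6 h, and an untreated control, each with 3 arrays. Bicuculline blocks GABA-A receptors, and high potassium depolarises the membrane. No genetic change is given in the labels, and nothing says whether the 3 replicates of a group came from separate cultures, so p-values rest on array-to-array spread alone, possibly technical.

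Ras proteins are switches that are active while bound to GTP. Exchange factors load them with GTP, GTPase-activating proteins end the signal, and active Ras drives the Raf, MEK and ERK kinases. In neurons this pathway is known as a route from calcium entry to the nucleus: Rasgrf1 and Rasgrf2 are exchange factors that bind calmodulin, and the Rasgrp proteins respond to diacylglycerol and calcium. Rem2 belongs to the RGK GTPases, which inhibit voltage-gated calcium channels.

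Promoter sequence is shown for the members whose window held the cyclic AMP response element core, TGACG on either strand, and for Rasl11a and Rasl11b, which moved alike in the values below. The RefSeq table of build GRCm38.p6 held 300-base windows, 250 bases before to 50 after a start site, for 9 of the 10 members, with 11 windows in all; Rasd1 was not matched. Capitals mark the core, and all lines read 5′ to 3′ on the strand of the gene. For Rasgrf1 and Rasgrf2, 30 bases around the core are given.
Rasgrf1, chr9:89909625-89909654, plus strand: attggCGTCAtatgactccgcctgctgccc
Rasgrf2, chr13:92131855-92131884, minus strand: ctgatctcccacgTGACGttttaccttctg
Rasl11a, chr5:146844821-146845070, plus strand: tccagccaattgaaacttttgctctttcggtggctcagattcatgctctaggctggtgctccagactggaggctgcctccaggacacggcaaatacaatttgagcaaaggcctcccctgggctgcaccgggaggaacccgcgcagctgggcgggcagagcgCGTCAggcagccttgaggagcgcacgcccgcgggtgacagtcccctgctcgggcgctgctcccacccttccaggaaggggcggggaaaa
Rasl11b, chr5:74195076-74195325, plus strand: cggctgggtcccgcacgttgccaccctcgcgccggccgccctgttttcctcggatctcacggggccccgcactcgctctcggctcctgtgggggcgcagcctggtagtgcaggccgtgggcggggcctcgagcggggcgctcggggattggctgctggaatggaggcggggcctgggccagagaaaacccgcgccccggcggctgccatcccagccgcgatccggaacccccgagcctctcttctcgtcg

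The core stood at bases -145 to -141 of Rasgrf1, -43 to -39 of Rasgrf2 and -89 to -85 of Rasl11a, counted from the start site. These are 3 of the 11 member windows, beside 20.8% of the 32851 windows in the table. The full element TGACGTCA, which contains the core, was in 0 of the 11 and in 1.79% of all windows, and the AP-1 motif TGANTCA in 0 of the 11 and 7.81% of all. The serum response element was in 0 of the 11 and 1.63% of all, and the MEF2 site in 1 of the 11, that of Rasgrp3, and 3.19% of all. The 250 bases shown were 63.6% G and C for Rasl11a and 74.0% for Rasl11b. A match describes letters in these windows and not a bound site.

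Signal is given as a percent of the 75th-percentile spot of the same array, so 100 means as bright as that spot, and a level is read only within a probe. The 75th percentile was between 1586 and 3087 processed intensity units, 65.0% to 75.9% of spots were well above background, and 0 were saturated. Of the 12 member probes, 11 probes of 9 genes passed the filter on dim probes, and all were tested with limma within 1 fit of 27779 probes. Among 10 activity genes read as a check of the labels, 9 rose and 1 fell in KCl, and 8 rose and 2 fell in Bic. The log2 fold changes of Fos, an immediate early transcription factor, were 4.47 in KCl and 2.76 in Bic. In KCl those of Fosb, Npas4, Nr4a1, Bdnf, Nptx2, Inhba and Ptgs2 lay between 1.86 (Nr4a1) and 5.30 (Fosb), with 4.32 for Npas4, 3.19 for Bdnf, 2.25 for Nptx2, 3.30 for Inhba and 3.67 for Ptgs2. In Bic Fosb had 4.14, Npas4 0.86, Nr4a1 0.66, Bdnf 2.90, Nptx2 2.13, Inhba 3.42 and Ptgs2 4.30. Arc changed by 0.71 in KCl and -0.65 in Bic, and Egr1 by -0.63 in KCl and -0.59 in Bic. Neuron markers were well above background on all arrays for 9 of 9 genes, oligodendrocyte-lineage markers for 4 of 5 and microglia markers for 3 of 5. Of the neuron markers, 6 were called higher and 1 lower in KCl, and 1 higher and 3 lower in Bic. Astrocyte markers, 6 of 6, summed to 7180 to 7634% in KCl, 5852 to 6266% in Bic and 5853 to 6549% in control arrays. In KCl 4 were called higher, Gfap by 0.66, and 2 lower, Aqp4 at -0.11 and Gjb6 at -0.69, and in Bic 0 were called higher and 3 lower. The part of these cell types in the results below was not tested. On whole cultures, fewer cells of a type and less RNA per cell cannot be told apart.

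Across all tested probes, 69.3% were called in KCl against control, 39.9% in Bic against control and 60.6% in KCl against Bic, at an adjusted p under 0.05. Of the 11 member probes, 8 were called in KCl (7 higher, 1 lower), 7 in Bic (4 higher, 3 lower) and 5 in KCl against Bic (5 higher, 0 lower). Over all probes, 36.3% were called higher and 32.9% lower in KCl, 17.4% and 22.5% in Bic, and 34.6% and 26.0% in KCl against Bic. Read against these shares, the counts are no result about the members as a group in KCl or in KCl against Bic. In Bic 7 of 11 stand beside 39.9%, which was not tested, and the members were chosen with earlier results of these data known. No result about the group is therefore read there either, and the members are described by their own values. Arrays did not overlap between the groups for 9 of the 11 probes in KCl against control, 7 in Bic against control and 5 in KCl against Bic, beside 73.0%, 54.1% and 67.3% of all probes. By fitted values, changes of at least 2-fold were seen for 2 of the 11 probes in each comparison. Beside these stand 11.0% of all probes in KCl, 2.72% in Bic and 5.10% in KCl against Bic, also by fitted values. With Rasd1 counted at its bound where control was not well above background, the count was 2 in KCl, 1 in Bic and 2 in KCl against Bic. No bounds were applied to the shares of all probes. The median log2 change of the member probes was 0.52 in KCl, 0.04 in Bic and 0.21 in KCl against Bic, and that of all probes was 0.05, -0.02 and 0.08. Both comparisons against control use the same 3 control arrays.

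How the arrays are scaled moves the balance of rises and falls. Of all calls, 52.4% were higher in KCl against control with the 75th percentile, 42.1% with quantile normalization, 35.5% with median scaling and 29.5% with the spike-in spots. In Bic against control 43.6% were higher, against 55.1% with the spike-in spots. After normexp background correction 66.0% were higher there with the 75th percentile and 44.3% with quantile normalization. In KCl against Bic 57.1% were higher, against 44.6% with quantile normalization, 37.0% with the median, 23.2% with the spike-in spots and 45.2% with normexp and quantile normalization. The median log2 change of all probes in KCl against control was 0.05 with the 75th percentile, -0.05 with quantile normalization, -0.11 with the median, -0.18 with the spike-in spots and 0.29 with normexp. Member changes under about 0.3 in KCl are therefore read beside these shifts.

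**Figure D1:**
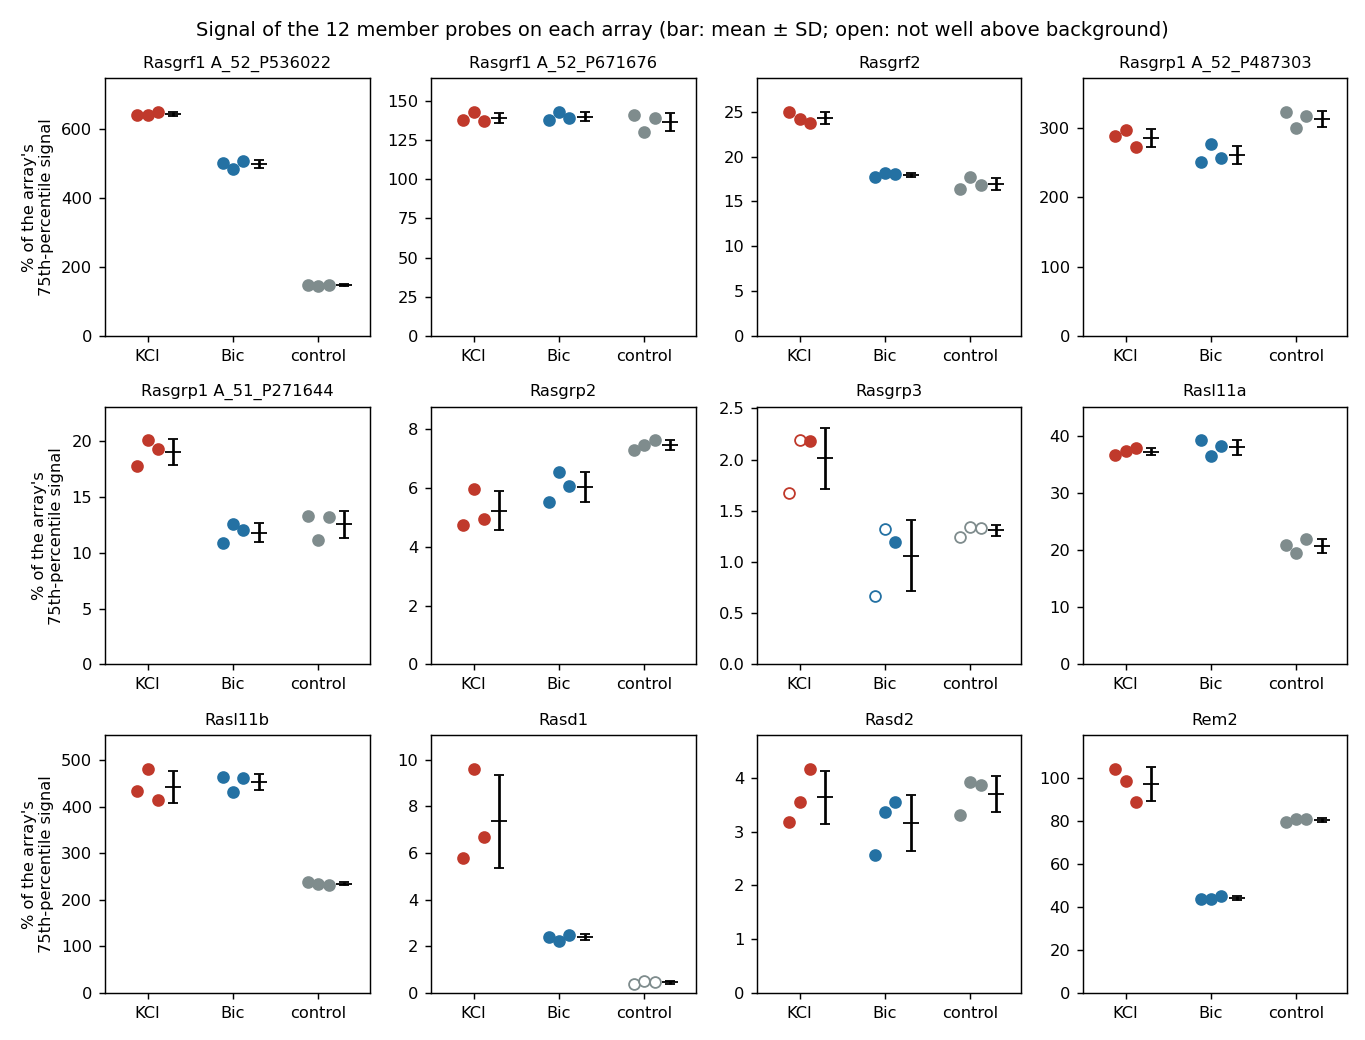
Signal of the 12 member probes, in percent of the array's 75th-percentile spot on a linear axis from 0, for each KCl, Bic and control array (points) with mean and SD (bars, n = 3 each). Open points were not well above background. The first Rasgrf1 probe, Rasl11a, Rasl11b and Rasd1 sit above control in both treatments, and Rem2 sits above control in KCl and below it in Bic.

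Rasgrf1 and Rasgrf2 come first among the exchange factors. Rasgrf1, a calcium/calmodulin-dependent factor of the brain that is imprinted in mice, rose in both treatments at 1 of its 2 probes. Probe A_52_P536022 had 639, 640 and 648% in KCl, 501, 484.5 and 505% in Bic, and 148, 144 and 148% in control arrays. The 3 groups did not overlap, and arrays of a group lay within a few percent of each other. The rise was 4.38-fold in KCl (log2 2.13 ± 0.03 SE, adjusted p = 3.8e-09) and 3.39-fold in Bic (1.76 ± 0.03, 2.9e-08). Only 1.35% of all tested probes rose further in KCl and 0.648% in Bic. KCl arrays were 1.29-fold above Bic arrays (0.37 ± 0.03, adjusted p = 3.8e-05), a difference that was 0.14 with the spike-in spots (adjusted p = 0.28) and 0.14 with normexp (adjusted p = 0.46).

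The other Rasgrf1 probe, A_52_P671676, is annotated to a different RefSeq transcript of the gene and did not move with the first. It had 138, 143 and 137% in KCl, 138, 143 and 139% in Bic, and 141, 129.9 and 139% in control arrays, so all groups overlapped. Its log2 change was 0.03 in KCl (95% interval -0.07 to 0.12, adjusted p = 0.57) and 0.04 in Bic (-0.06 to 0.13, adjusted p = 0.55). The changes of the 2 probes differed by 2.10 in KCl and 1.73 in Bic on the log2 scale. Per array, the difference of the 2 probes did not overlap between either treatment and control, and the exact two-sided permutation test over 3 against 3 arrays gave p = 0.1 each time, the smallest it can give. The sequences of the probes were not used here, so which exons they read is not given.

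**Figure D2:**
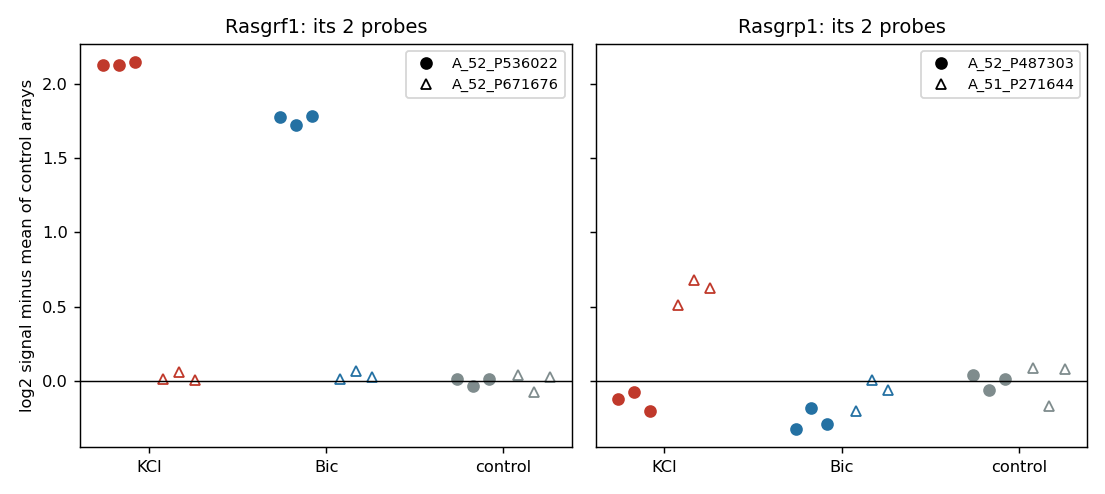
log2 signal minus the mean of the control arrays for the 2 probes of Rasgrf1 (left) and of Rasgrp1 (right) on each KCl, Bic and control array; filled circles and open triangles are the 2 probes of a gene. For Rasgrf1 the circles lie near 2.13 in KCl and 1.76 in Bic while the triangles stay near 0; for Rasgrp1 the triangles lie near 0.61 in KCl while the circles lie below 0.

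Rasgrf2, the related exchange factor that acts on Ras and Rac, rose in KCl only modestly and was not called in Bic. Its probe had 25.0, 24.2 and 23.7% in KCl, 17.7, 18.2 and 18.0% in Bic, and 16.4, 17.7 and 16.8% in control arrays. All KCl arrays lay above all others, and Bic and control arrays overlapped. The change was 1.43-fold in KCl (log2 0.52 ± 0.04, adjusted p = 1.1e-05) and 0.08 ± 0.04 in Bic (adjusted p = 0.14). KCl exceeded Bic by 0.44 ± 0.04 (adjusted p = 5e-05), and the test of that difference was lost with the spike-in spots (0.21, adjusted p = 0.063) and with normexp (0.73, adjusted p = 0.17). With normexp and the 75th percentile the KCl change was 0.78 and no longer called (adjusted p = 0.11).

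The Rasgrp factors gave smaller and mixed changes. Rasgrp1, known from T cells as the factor that couples diacylglycerol to Ras, has 2 probes with the same RefSeq identifier, and they disagreed. Probe A_52_P487303 had 288, 297 and 272% in KCl, 251, 276 and 257% in Bic, and 323, 300.3 and 317% in control arrays. Both treated groups lay wholly below control. The fall was called in Bic (log2 -0.26 ± 0.05, adjusted p = 0.0056) and missed the threshold in KCl (-0.13 ± 0.05, adjusted p = 0.054), and KCl minus Bic was 0.13 ± 0.05 (adjusted p = 0.065). In KCl it was called with median scaling (-0.29, adjusted p = 0.003), with the spike-in spots (-0.36, adjusted p = 0.013), with a trended prior (adjusted p = 0.03) and without the second KCl array (-0.16, adjusted p = 0.045) or the second control array (-0.16, adjusted p = 0.042). In Bic it was lost with normexp (-0.23, adjusted p = 0.59), with normexp and quantile normalization (-0.22, adjusted p = 0.055) and with the spike-in spots (-0.26, adjusted p = 0.12).

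Probe A_51_P271644 of Rasgrp1 went the other way in KCl. It had 17.8, 20.1 and 19.3% in KCl, 10.9, 12.6 and 12.0% in Bic, and 13.3, 11.1 and 13.3% in control arrays. KCl arrays lay above all others, and Bic and control arrays overlapped. The rise was 1.52-fold in KCl (log2 0.61 ± 0.09, adjusted p = 4.4e-04), and the change in Bic was -0.08 ± 0.09 (adjusted p = 0.50). KCl exceeded Bic by 0.69 ± 0.09 (adjusted p = 3.1e-04). Normexp with the 75th percentile ended the calls of KCl against control (0.98, adjusted p = 0.085) and of KCl against Bic (1.01, adjusted p = 0.11). The changes of the 2 probes differed by -0.74 in KCl and -0.18 in Bic, the first probe minus the second, without overlap of the arrays (exact permutation p = 0.1 each, the smallest possible with 3 against 3). No direction for Rasgrp1 as a gene follows from these probes in KCl.

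Rasgrp2, an exchange factor that acts mainly on Rap1 and is known from platelets and striatum, fell. The probe had 4.74, 5.99 and 4.96% in KCl, 5.52, 6.55 and 6.07% in Bic, and 7.29, 7.46 and 7.62% in control arrays. All treated arrays lay below all control arrays, and KCl and Bic arrays overlapped. The fall was -0.52 ± 0.10 in KCl (adjusted p = 0.0016) and -0.31 ± 0.10 in Bic (adjusted p = 0.036), and KCl minus Bic was -0.21 ± 0.10 (adjusted p = 0.085). With normexp and the 75th percentile the KCl value turned to 0.63 (adjusted p = 0.43). With normexp and quantile normalization it remained a called fall. The Bic call was lost under 10 of the alternatives tried, 5 of which each left out an array, namely Bic array 1 or 3 (adjusted p = 0.11 and 0.081) or any control array (0.069, 0.083 and 0.095 for control arrays 1 to 3).

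Rasgrp3, a factor for Ras and Rap known from B cells and endothelium, was at the edge of detection and was not tested. It was well above background on 1 of 3 KCl, 1 of 3 Bic and 0 of 3 control arrays. Its signal was 1.67, 2.19 and 2.18% in KCl, 0.666, 1.32 and 1.20% in Bic, and 1.25, 1.35 and 1.34% in control arrays. Of 4 endothelial markers, 0 were well above background on all arrays, and Pecam1 and Cdh5 were so on none.

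Among the GTPases, Rasl11a and Rasl11b rose by nearly the same amount in both treatments. RASL11A is known in mouse cells as a chromatin-associated regulator of ribosomal RNA transcription. The Rasl11a probe had 36.6, 37.3 and 37.9% in KCl, 39.2, 36.6 and 38.3% in Bic, and 20.9, 19.5 and 21.9% in control arrays. Treated and control arrays were widely apart, while KCl and Bic arrays overlapped. The rise was 1.80-fold in KCl (log2 0.85 ± 0.05, adjusted p = 2.5e-06) and 1.83-fold in Bic (0.87 ± 0.05, adjusted p = 8.8e-06). KCl minus Bic was -0.03 with a 95% interval of -0.14 to 0.09 (adjusted p = 0.64).

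Rasl11b followed the same course on a probe of its own. It had 434, 482 and 414% in KCl, 464, 433 and 462% in Bic, and 238.5, 234 and 232% in control arrays. Here too the treated arrays overlapped each other and none overlapped control. The rise was 1.89-fold in KCl (log2 0.91 ± 0.06, adjusted p = 4.1e-06) and 1.93-fold in Bic (0.95 ± 0.06, adjusted p = 1.3e-05). KCl minus Bic was -0.03, interval -0.17 to 0.10 (adjusted p = 0.64). Over the alternatives this difference ranged from -0.26 to 0.014, and that of Rasl11a from -0.254 to 0.247. Neither was called under any of them. Rises of at least this size are rarer in Bic than in KCl: 9.29% of all probes rose further than Rasl11b in KCl and 2.36% in Bic, and 10.6% rose further than Rasl11a in KCl and 2.75% in Bic.

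Rasd1, the dexamethasone-induced Ras protein also called Dexras1, was not well above background on any control array and was so on every treated one. Its signal was 5.79, 9.60 and 6.68% in KCl, 2.42, 2.24 and 2.49% in Bic, and 0.390, 0.506 and 0.475% in control arrays. The 3 groups did not overlap, and the KCl arrays spread most. Against the lowest signal counted as well above background on the control arrays, Rasd1 was at least 5.16-fold higher in KCl and at least 1.71-fold higher in Bic. These bounds were not tested. The adjusted p-values, 6.8e-07 in KCl and 3.7e-05 in Bic, belong to the limma fit, which used control values not well above background. The probe passed the filter through its treated groups. KCl exceeded Bic 3.02-fold (log2 1.59 ± 0.18, adjusted p = 1.7e-04). The fitted log2 change, which is no bound, ranged over the alternatives from 1.14 to 4.14 in KCl and from 0.48 to 2.47 in Bic. Normexp background correction ended the Bic call (log2 0.54, adjusted p = 1.0) and the KCl against Bic call (1.75, adjusted p = 0.076).

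Rasd2, also called Rhes, is named for its enrichment in striatum. Its probe had 3.18, 3.55 and 4.16% in KCl, 2.57, 3.37 and 3.55% in Bic, and 3.31, 3.93 and 3.86% in control arrays, with overlap throughout. The log2 change was -0.03 in KCl (95% interval -0.37 to 0.31, adjusted p = 0.86) and -0.24 in Bic (-0.57 to 0.10, adjusted p = 0.24). Same-numbered Bic and control arrays deviated together, and with the replicate number as a block the Bic value was called (adjusted p = 0.036 with all arrays, 0.042 with the 6 compared). These same-numbered arrays also share a slide, and with the slide as a block the Bic value was not called (adjusted p = 0.19). KCl minus Bic was 0.21 (adjusted p = 0.25), and -0.02 with the slide as a block (adjusted p = 0.93). All 7 striatal projection neuron markers were well above background on every array, summing to 406 to 470.5% in KCl, 299 to 343% in Bic and 364 to 404% in control arrays; their part in the Rasd2 and Rasgrp2 values was not tested.

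Rem2 moved in opposite directions in the 2 treatments. It had 104, 98.8 and 88.8% in KCl, 43.6, 43.8 and 45.0% in Bic, and 79.4, 80.9 and 80.9% in control arrays. Every KCl array lay above control and every Bic array below. The fall in Bic was to 44.1 ± 0.802% against 80.4 ± 0.855% in control (SD, n = 3 each; log2 -0.87 ± 0.06, adjusted p = 1.8e-05), and only 0.875% of all probes fell further. The rise in KCl was 1.21-fold (0.27 ± 0.06, adjusted p = 0.0032). It was lost with median scaling (0.11, adjusted p = 0.12), the spike-in spots (0.05, adjusted p = 0.69) and normexp with the 75th percentile (0.23, adjusted p = 0.10). The difference between the treatments was tested directly, and KCl exceeded Bic 2.20-fold (1.14 ± 0.06, adjusted p = 3.1e-06).

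**Figure D3:**
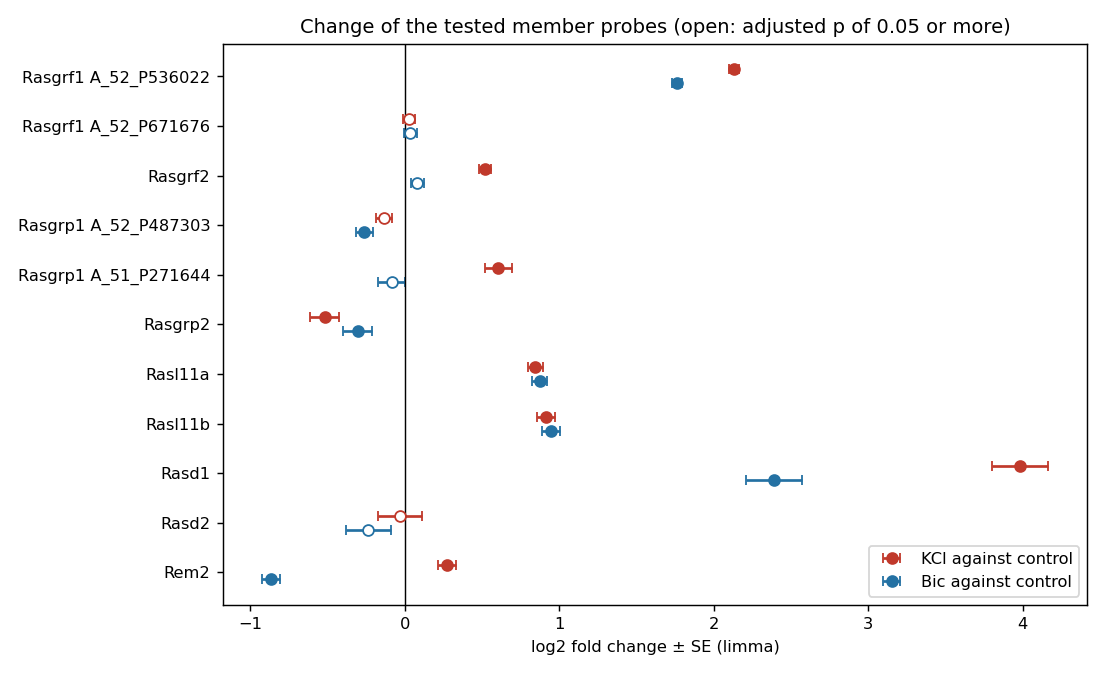
log2 fold change with limma's standard error of the 11 tested member probes in KCl against control and in Bic against control; filled points passed an adjusted p of 0.05. Rasd1, 1 Rasgrf1 probe, Rasl11a and Rasl11b lie to the right in both, Rem2 lies on opposite sides, and Rasgrp2 lies to the left in both. The Rasd1 points are fitted values, not bounds.

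Set side by side, 4 probes rose in both treatments (Rasgrf1 A_52_P536022, Rasl11a, Rasl11b and Rasd1), 1 fell in both (Rasgrp2), 1 rose in KCl and fell in Bic (Rem2), 2 rose in KCl alone past the threshold (Rasgrf2 and Rasgrp1 A_51_P271644), 1 fell in Bic alone past the threshold (Rasgrp1 A_52_P487303) and 2 passed in neither (Rasgrf1 A_52_P671676 and Rasd2). KCl against Bic, the test of the difference, was called for Rasgrf1 A_52_P536022, Rasgrf2, Rasgrp1 A_51_P271644, Rasd1 and Rem2, each higher in KCl. Slides were shared in part between groups, so the changes were recomputed within a slide. For Bic against control, 1 slide held 2 Bic and 2 control arrays and another 1 of each. The latter also held 2 KCl arrays, and the KCl comparisons were read there. All 7 Bic calls, 8 KCl calls and 5 KCl against Bic calls kept their sign within slides. The arrays of the groups compared did not overlap for any of these calls, so the sign was bound to hold and is no test of the slides. The within-slide values of these calls lay within 0.093 of the values above on the log2 scale. Of the values not called, Rasd2 moved most, to -0.20 in KCl against control and -0.08 in KCl against Bic within the slide, against -0.03 and 0.21 over all arrays.

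**Figure D4:**
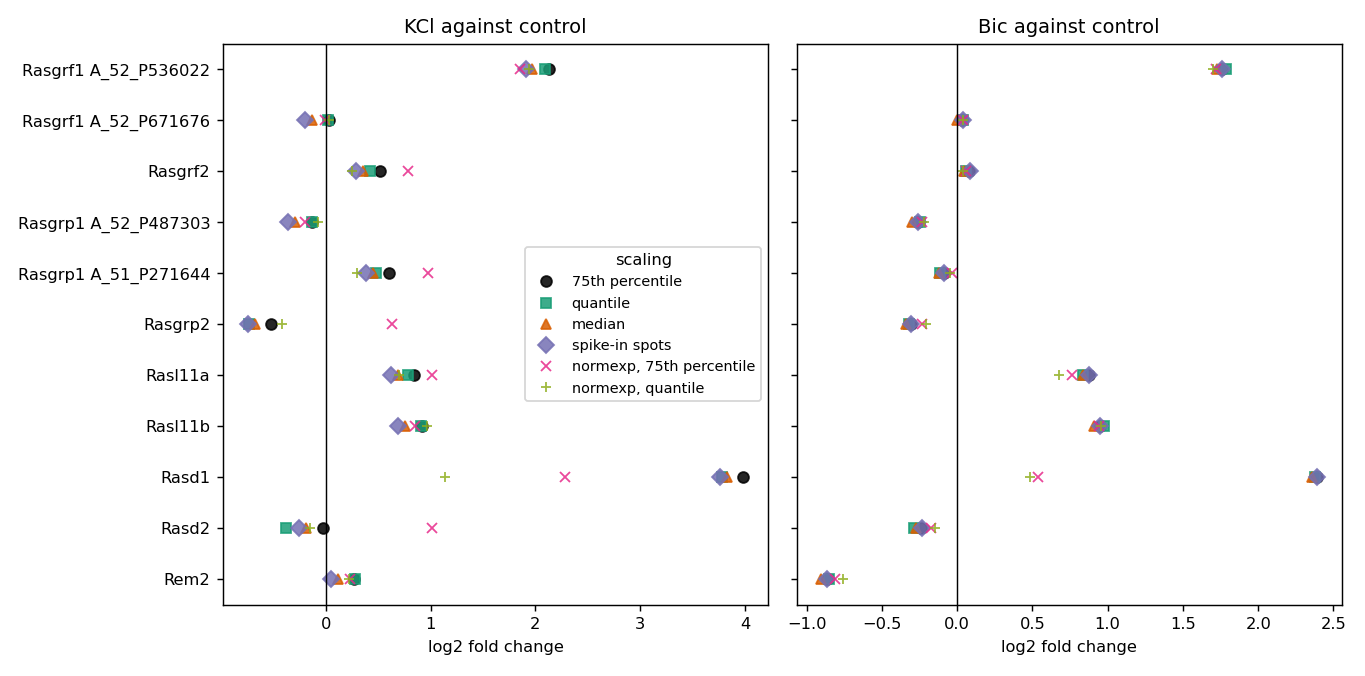
log2 fold change of the 11 tested member probes in KCl against control (left) and Bic against control (right) under 6 combinations of background correction and scaling. Rasgrf1 A_52_P536022, Rasl11a, Rasl11b and Rasd1 stay above 0 in all, while Rasgrp2 in KCl is 0.63 with normexp and the 75th percentile and below 0 in the others.

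For the members, the genes with the most similar pattern were the named genes with the smallest root mean square difference over the 9 arrays, in log2 units centred on the control mean, among 14014 genes. For Rasgrf1 A_52_P536022 they were Sik1 (0.067), Scg2 (0.086) and Rab39 (0.094). Sdf2l1 was closest to both Rasl11b (0.060) and Rasl11a (0.062), followed by Prkg2 and Ch25h for Rasl11b and by Cdr2 and Atxn7 for Rasl11a. Rem2 had Gcnt2 (0.074), Proser2 (0.106) and Rprml (0.111), which also lay above control in KCl and below it in Bic. None are given for Rasd1, whose control level was not measured above background. The genes closest to Rasgrf2 were Stox2, Sox4 and Lamp2 (0.032 to 0.036), to Rasgrp1 A_52_P487303 Caskin1, Atg3 and Ankrd13d (0.042 to 0.046), to Rasgrp2 Plin5, Nrros and Klf11 (0.050 to 0.066), and to Rasd2 Camta2, Sdc3 and St6gal1 (up to 0.106). The points share arrays and scaling, and a small distance is easily reached by genes that change little.

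The rest of the pathway was read in 8 lists with 74 genes, of which 70 are on the array and 69 were tested at their brightest probe. In KCl 41 rose and 16 fell, in Bic 22 rose and 21 fell, and in KCl against Bic 44 were higher and 9 lower. That is 82.6% called in KCl, beside 70.8% of all 14061 named genes tested, 62.3% in Bic beside 42.3%, and 76.8% in KCl against Bic beside 63.1%. Of all named genes, 35.3% were called higher and 35.5% lower in KCl, 16.7% and 25.7% in Bic, and 35.0% and 28.2% in KCl against Bic. The median log2 change of the lists' genes was 0.20 in KCl and 0.01 in Bic. With the spike-in spots 19 rose and 18 fell in KCl, 13 rose and 9 fell in Bic, and 10 were higher and 15 lower in KCl against Bic, so the balance in KCl against Bic turns round. The share called was then below that of all probes in KCl (16268 of 27779 called) and in KCl against Bic (12375 of 27779). In Bic it stayed above (4847 of 27779). With normexp and the 75th percentile 17 rose and 8 fell in KCl, 7 rose and 2 fell in Bic, and 8 were higher and 4 lower in KCl against Bic. With other scalings the medians of 6 of the 8 lists in KCl fell below 0 at least at 1 setting, the exceptions being the RGK and the Spry and Spred lists.

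Rrad and Gem, the RGK GTPases related to Rem2, rose in both treatments, unlike Rem2 in Bic. The log2 change of Rrad was 2.48 ± 0.14 in KCl and 3.06 ± 0.14 in Bic, and that of Gem 1.36 ± 0.10 in KCl and 0.67 ± 0.10 in Bic, and Rem1 did not pass the filter. Of 7 Spry and Spred genes, which restrain Ras-ERK signalling and are known as its feedback inhibitors, 5 rose in KCl and 6 in Bic and 0 fell. Spry1 rose by 1.25 ± 0.07 and Spred1 by 1.17 ± 0.04 in KCl, and Spry4 by 0.92 ± 0.14 and Spry2 by 0.69 ± 0.05 in Bic. The list's median was 0.65 in KCl and 0.50 in Bic, and stayed at or above 0.34 in KCl and 0.46 in Bic under the scalings tried. With normexp and the 75th percentile, though, 4 rose in KCl and 2 in Bic.

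Of 18 other exchange factors, 10 rose and 5 fell in KCl, and 4 rose and 7 fell in Bic. Ralgps1, a Ral factor, rose by 1.19 ± 0.06 in KCl and 0.77 ± 0.06 in Bic. Sos1, the factor that receptor tyrosine kinases recruit, changed by 1.27 ± 0.04 in KCl and 0.73 ± 0.04 in Bic at its brightest probe and by -1.04 and -0.10 at the other, so its probes disagree. The related Sos2 fell by 0.63 in KCl. Rasgef1a fell by 0.37 in KCl and by 0.72 in Bic, and Ralgds fell by 0.72 in Bic. Among 10 GTPase-activating proteins, 5 rose and 4 fell in KCl, and 2 rose and 4 fell in Bic. Rasa2 rose by 0.52 in KCl and 0.37 in Bic, Iqgap1, a scaffold related to these proteins, by 0.47 in KCl. The change of Rasal2 in Bic was 0.13, a call lost under 12 of 19 alternatives. Rasa3 fell by 0.97 and Rasa1 by 0.38 in KCl, and Rasal1 fell by 0.62 and Dab2ip by 0.59 in Bic.

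Of 5 Ras GTPases of the classical and R-Ras groups, 2 rose and 1 fell in KCl, and 1 rose and 2 fell in Bic. Nras changed by -0.13 in KCl, where its other probes ranged from -0.20 to 0.57, and by -0.24 in Bic, Hras by -0.22 and Mras by 0.25 in Bic, and Rras by 0.32 in KCl. Rras2 changed by 0.12 in KCl at its brightest probe and by 0.35 to 0.54 at its others. The first value turned below 0 with normexp and the 75th percentile, with median scaling and with the spike-in spots. Of 11 Rap, Ral, Rheb and Rit genes, 6 rose and 4 fell in KCl, and 4 rose and 4 fell in Bic. Rheb, the activator of mTORC1, rose by 1.29 ± 0.05 in KCl and 0.79 ± 0.05 in Bic, and Rap1b by 0.53 in KCl and 0.29 in Bic. Rhebl1 fell by 0.94 in KCl and Rap2c by 0.17 in Bic. Rap2b changed by -0.45 in KCl and -0.61 in Bic at its brightest probe but by -0.14 in KCl and -0.03 in Bic at the other. Normexp with the 75th percentile ended both calls (adjusted p = 0.29 in KCl and 0.11 in Bic).

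Of 7 other Ras-like GTPases tested, 3 rose and 2 fell in KCl, and 1 rose and 3 fell in Bic. Rasl10a fell by 1.20 ± 0.07 in KCl and by 1.63 ± 0.07 in Bic, opposite to Rasl11a and Rasl11b. Normexp with the 75th percentile ended both Rasl10a calls (-0.33 in KCl, adjusted p = 0.59, and -1.32 in Bic, adjusted p = 0.23). Rerg rose by 0.96 and Diras1 fell by 0.60 in KCl, and Rasl12 fell by 0.36 in Bic. Rasl10b rose by 0.57 in KCl and 0.17 in Bic at its brightest probe, and changed by 0.13 and 0.07 at the other. Of 9 genes of the Raf, MEK and ERK cascade, 8 rose and 0 fell in KCl, and 2 rose and 1 fell in Bic, at the brightest probe. By the mean of a gene's tested probes, 7 rose and 1 fell in KCl, and 1 rose and 1 fell in Bic. The median at the brightest probe was 0.20 in KCl and -0.03 there with the spike-in spots, with which 2 rose. Araf changed in KCl by 0.01 at its brightest probe and by -0.67 at the other. The scaffold Ksr1 rose by 0.86 ± 0.13 in KCl, and Shoc2 by 0.61 ± 0.04 in KCl and 0.35 ± 0.04 in Bic. In Bic Araf changed by 0.15 and Mapk3, which encodes ERK1, by -0.11, both at an adjusted p of 0.045, and of 19 alternatives 10 ended the call of Araf and 14 that of Mapk3. In Bic the calls of Mras (10 of 19), Rasl10b (8), Rasl12 (7) and Rap1b (6) were also often lost, and in KCl that of Nras (5 of 18).

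**Figure D5:**
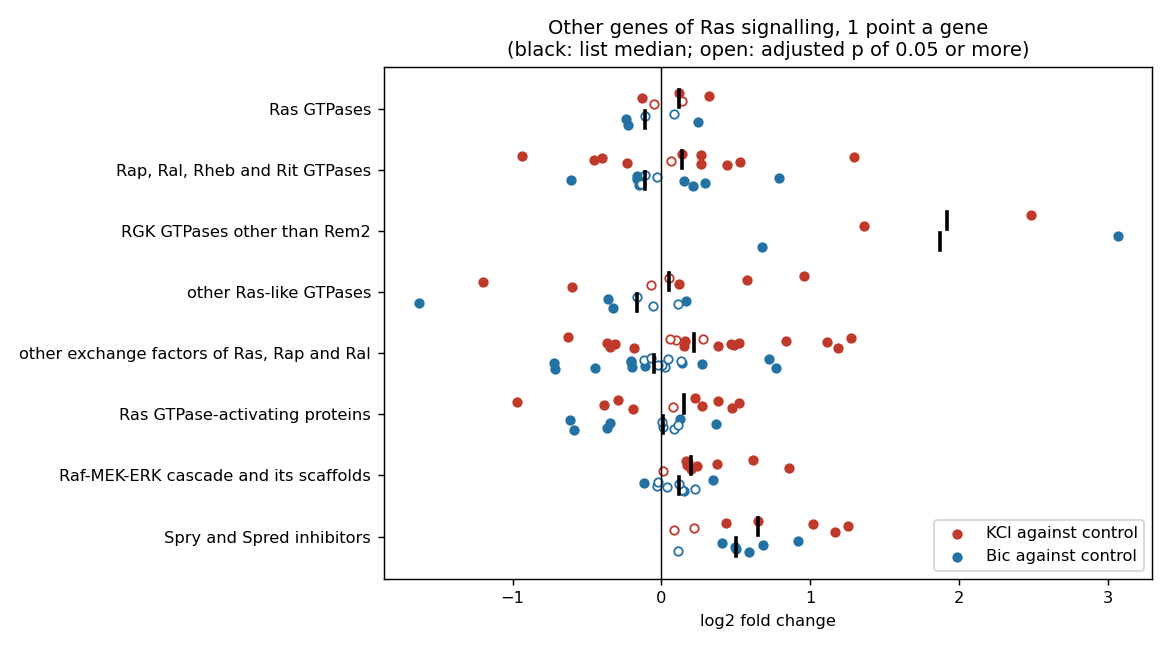
log2 fold change of the 69 tested genes of 8 lists of Ras signalling, 1 point a gene, in KCl against control (upper row of a list) and Bic against control (lower row), with list medians as black bars; filled points passed an adjusted p of 0.05. The RGK genes and the Spry and Spred genes lie to the right in both comparisons, and the other lists hold points on both sides or close to 0.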

How the data were processed

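RNA was hybridised to 9 arrays of 1 colour, per the labels' protocols. The authors deposited processed signal intensity made with Agilent Feature Extraction (10.7.3.1 in the file headers, 10.5.1.1 in the submitters' notes on processing); the software, per the file headers, subtracted background and detrended within each array. No normalization between arrays was found in the deposited intensity, and the values of the deposited series table equal it on all 45018 features. Here it was set to log2, each array's 75th percentile over 43379 non-control spots was subtracted, spots marked as outliers were left out and spots of a probe averaged. The median and background intensity, also deposited by the authors, served for the normexp alternative (offset 50). Of 41174 probes, 26888 matched a symbol of the RefSeq table by transcript identifier and 14286 did not. Probes measured on 2 or more arrays of each group, and well above background on all arrays of 1 or more groups, were kept, which left 27779.

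Every probe was tested with limma 3.58.1 in R 4.3.3, all 9 arrays in 1 fit, two-sided, with Benjamini-Hochberg adjustment over all probes of a comparison. Residual degrees of freedom were 6, the prior's were 1.71, and the code was tested on simulated data. The number of arrays limits the precision: the median log2 SD between replicates was 0.075. A fold against a group with no array well above background is a bound: the dim group's probe was set, array by array, to the lowest signal well above background there, or to its own value if that was higher. The members, lists, tests and alternatives were chosen with earlier results of these data known. Named list genes are the 2 largest rises and 2 largest falls past the threshold per list in each comparison against control, all RGK genes and all activity genes; 1 gene is not reported here and is left out of the lists.

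Same-numbered Bic and control arrays deviated together (correlations of deviations from the group means 0.345, 0.209 and 0.669). They also shared a slide, so pairing by number and sharing a slide cannot be told apart. Same-numbered pairs with KCl arrays lay on different slides and correlated between -0.484 and -0.061. Of the 9 arrays, 3 correlated best, among arrays of other groups, with an array of their own number.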

Additional observations from a re-analysis of the deposited data

How the results depend on the processing

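The number of arrays and the signal over background limit these results, most of all for Rasd1, Rasd2, Rasgrp2 and Rasgrp3, which lie low on the arrays. Normexp with the 75th percentile called 4 member probes in KCl against control, 4 in Bic against control and 1 in KCl against Bic, and 6112, 1029 and 3063 of all probes; the spike-in spots called 4847 of all probes in Bic against control. Leaving out 1 array gave 8 to 9, 6 to 7 and 5 to 6 member probes, and 17533 to 18489, 9163 to 9844 and 15050 to 15745 of all probes. With the replicate number as a block, 8, 8 and 7 member probes were called in these comparisons; the Bic against control count was also 8 with the block in the 6 arrays compared, chosen after seeing the data. Besides Rasd2 in Bic against control, the block changed the calls of Rasgrp2 (-0.21, adjusted p = 0.039) and Rasd2 (0.21, adjusted p = 0.039) in KCl against Bic. Same-numbered KCl and Bic arrays did not deviate together. The block changed no other member call. Over the alternatives, 535 single member values kept direction and side of the threshold, 25 lost a call, 18 gained one and 24 changed sign. Of the 69 pathway genes, 37, 22 and 25 were called with the spike-in spots and 25, 9 and 12 with normexp and the 75th percentile, in KCl against control, Bic against control and KCl against Bic, settings added after seeing the data. The spike-in spots called 16268, 4847 and 12375 of all 27779 probes. With them the genes' share was below that of all probes in KCl against control and KCl against Bic, and above it in Bic against control. With normexp and the 75th percentile it was above in all comparisons. The cause was not tested. Of the members' changes of sign, that of Rasgrp2 in KCl against control was the 1 from a called value.

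Changes of sign with normexp and the 75th percentile were, in KCl against control, Rasgrp2 0.63, Rasgrf1 A_52_P671676 -0.005 and Rasd2 1.01, and, in KCl against Bic, Rasgrp2 0.865 and Rasl11a 0.247. With median scaling Rasgrf1 A_52_P671676 was -0.132 in KCl and -0.001 in Bic. With the spike-in spots it was -0.199 in KCl, and in KCl against Bic Rasgrp1 A_52_P487303 was -0.096 and Rasd2 -0.02. With quantile normalization Rasd2 was -0.088 in KCl against Bic. With normexp and quantile normalization Rasl11a was 0.021, Rasl11b 0.01 and Rasd2 -0.003 there, and with the slide as a block Rasl11b was 0.008 and Rasd2 -0.02. Without 1 array at a time, Rasgrf1 A_52_P671676 ranged from -0.009 to 0.049 in KCl, from -0.0 to 0.058 in Bic and from -0.026 to 0.007 in KCl against Bic, Rasd2 in KCl from -0.133 to 0.06, and Rasl11b in KCl against Bic from -0.095 to 0.014. In KCl against Bic, Rasgrp2 was called without the second KCl array (-0.316, adjusted p = 0.0097), with quantile normalization (-0.414), median scaling (-0.337), the spike-in spots (-0.44) and normexp with quantile normalization (-0.206). Rasgrp1 A_52_P487303 was called there without the second Bic array (0.17) or KCl array 3 (0.165). Of the named list genes' values, 1193 kept direction and side of the threshold over the alternatives, 99 lost a call and 3 changed sign, all of Rras2 in KCl against control (-0.037 with normexp and the 75th percentile, -0.04 with median scaling and -0.106 with the spike-in spots).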
